A study of Xenopus laevis with 6 samples.

Results

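The genes described here encode the SWI/SNF (BAF), CHD, ISWI and INO80 chromatin remodelers and their subunits in the optic tectum of Xenopus laevis. They were chosen by symbol from the deposited annotation, which gave 66 genes of 45099. Of these, 36 are copies on the long (.L) subgenome and 30 on the short (.S) subgenome of this allotetraploid frog, for 38 symbols. Both copies were annotated for 28 symbols, the L copy alone for 8 and the S copy alone for 2. RNA came from tadpoles at stage 46, in 3 libraries from neural progenitor-enriched tectum of dark-exposed animals (NPC) and 3 from immature neuron-enriched tectum of animals given visual stimulation (IN). Population and visual condition cannot be told apart, because each group had its own. The sources used here do not give the strain, the age in days, the number of animals per library or the way each population was enriched. Fewer cells of a type and less RNA per cell cannot be told apart in such bulk libraries.

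Chromatin remodelers use ATP to slide, eject or exchange nucleosomes. In BAF complexes an ATPase such as smarca4 sits on a scaffold of shared subunits, and a set of exchanged subunits gives each cell type its own assembly. In the mouse brain, neural progenitors carry Actl6a, Dpf2 or Phf10, and Ss18, and neurons leaving the cell cycle replace them with Actl6b, Dpf1 or Dpf3, and Ss18l1 (also called Crest). CHD proteins carry a pair of chromodomains beside the ATPase. CHD3 and CHD4 drive the NuRD deacetylase complex, and mutations in human CHD7 and CHD8 cause developmental disorders of the brain. No gene was annotated under the names actl6a, actl6b, arid1a, smarca2, smarcd3, chd5, chd7 or bcl11a, so the actl6 exchange was not analysed here.

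No remodeler gene differed between NPC and IN past the test. Of the 64 members with enough reads, 0 reached an adjusted p under 0.05 in edgeR's quasi-likelihood test, where 0% of all 19158 tested genes did. At an unadjusted p under 0.05 there were 2 members, the neuronal-type subunit gene dpf1.L and the progenitor-type subunit gene ss18.S, which is 3.125% of the members beside 3.43% of all tested genes (1.93% in the direction of dpf1.L and 1.51% in that of ss18.S). The direction of these 2 copies was opposite to that of the mouse exchange, with dpf1.L higher in NPC and ss18.S higher in IN. With a share this near that of all genes, it is not read as a result about the exchange. By fold change alone, 4 of the 6 neuronal-form copies were higher in NPC and 2 in IN. The 4 progenitor-form copies split 2 and 2, with ss18.L higher in NPC. DESeq2 called 0 members, beside 0.459% of all genes, and 3 members were at an unadjusted p under 0.05 in it, beside 6.68% of all genes. In coding-sequence counts, 3 of 58 members were at an unadjusted p under 0.05 (dpf1.L, ss18.S and smarcb1.L), beside 3.51% of the genes tested there. Members were better measured than most genes, with a median standard error of 0.81 on the log2 scale beside 1.41 over all tested genes.

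Most members, counted as single copies, leaned towards NPC without passing the test. The log2 fold change, given as IN minus NPC throughout, was below 0 in 43 of 64 members (67.2%), beside 51% of all tested genes, with a median of -0.22 beside -0.03. In coding-sequence counts it was below 0 in 35 of 58 members (60.3%), beside 49.6% of all genes tested there. The lean was smaller with L and S copies summed. There, 21 of 38 symbols (55.3%) were below 0, beside 51.2% of all summed genes, with a median of -0.08 beside -0.03. Without NPC replicate 3, the log2 fold change of single copies was below 0 in 34 of 65 members (52.3%), beside 47.8% of all genes tested there. That was the lowest share with a library left out. With any other library left out it was 56.9% to 69.2%, beside 47.1% to 53.6% of all genes. Neuron markers leaned the same way, with 15 of 20 genes below 0, and progenitor and radial glia markers the other way, with 11 of 16 above 0. Most genes of both lists thus went against the group names. The 5 progenitor markers below 0 included hes1.S, the only one of the 16 with an unadjusted p under 0.05. Its log2 fold change was -4.29 (SE 1.45, unadjusted p = 0.00778 by edgeR), with the groups overlapping. In CPM, counts relative to library size after TMM scaling, the summed level of the neuron markers ran from 6472 to 12116 in NPC and from 5530 to 8857 in IN. The part of the markers in the members' lean was not tested.

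**Figure D1:**
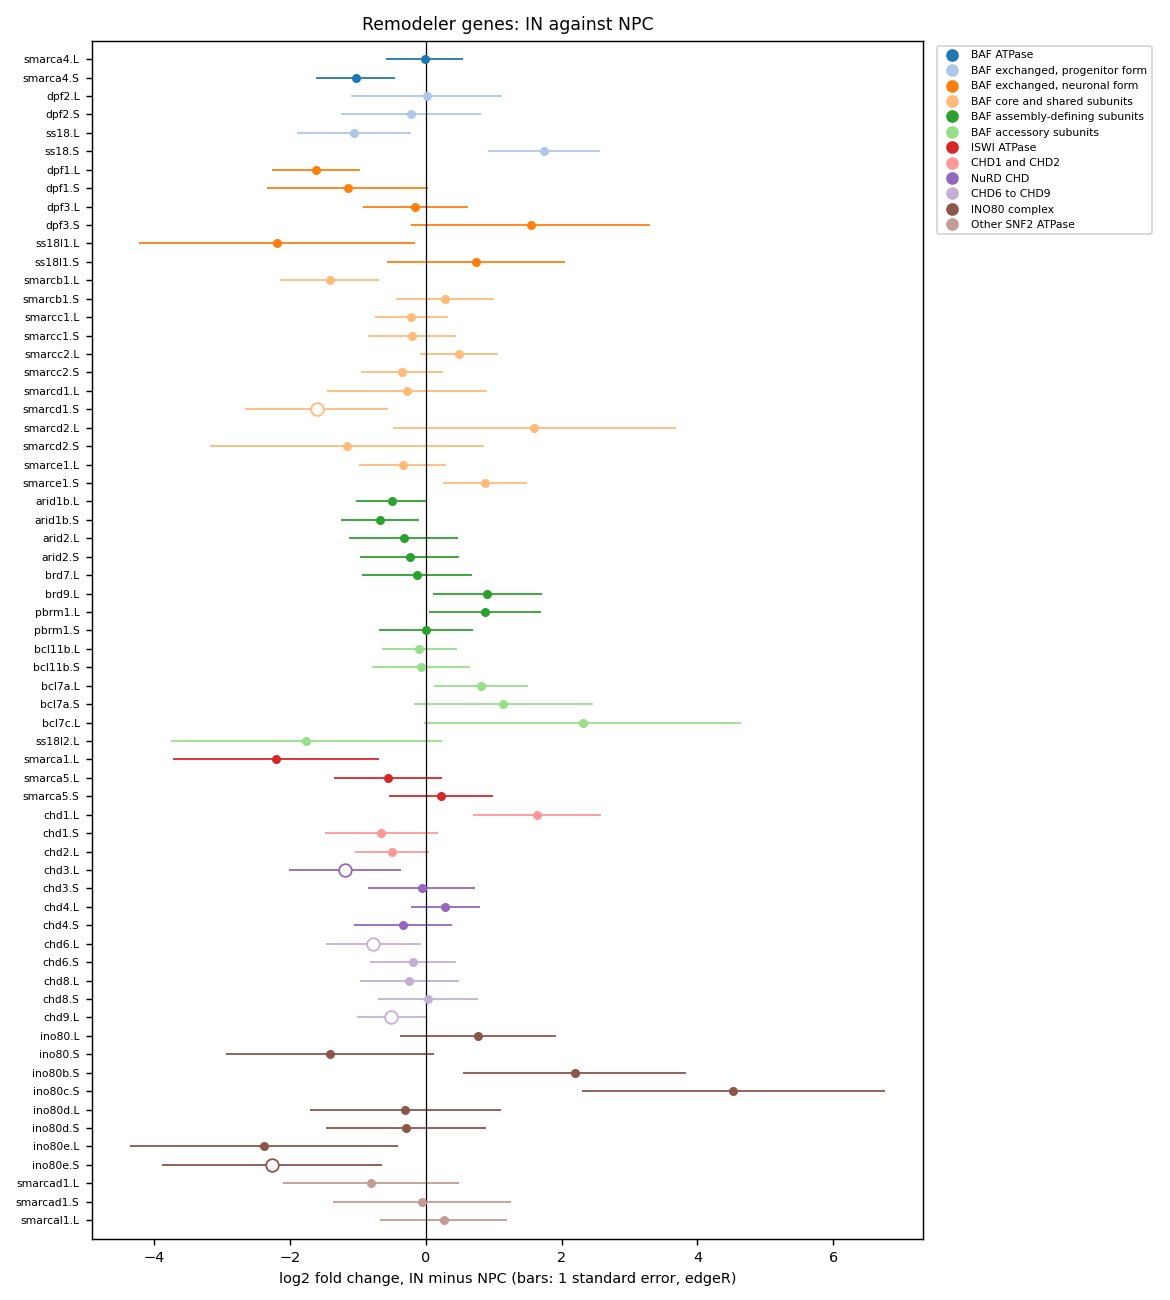
Log2 fold change of each tested remodeler gene, IN minus NPC (x axis), with bars of 1 standard error derived from the F statistic of edgeR, coloured by role. Open circles mark the 5 members whose 3 NPC libraries all lay above the 3 IN libraries, and 43 of the 64 points lie left of 0.

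Library totals were 8422751 to 9914191 counted reads, of which the 66 members took 0.51% to 0.71%. The main table counted reads over whole transcripts with their introns. This was seen in genes with no annotated untranslated region, where the coding counts equalled 104% to 110% of the main counts in 4599 genes without introns, but 45.8% to 78.7% in 1667 genes with 20001 or more bases of intron. Coding reads made up 52.7%, 64.7% and 77.4% of the members' reads in NPC replicates 1, 2 and 3, and 53.1%, 63.7% and 76.8% in IN replicates 1, 2 and 3. Levels compared between genes are therefore given as coding RPKM, reads per kb of coding sequence scaled to a common total of coding reads, and levels of 1 gene between libraries as CPM of the main table after TMM scaling. Progenitor markers (16 genes such as sox2, vim and fabp7) summed to 1254 to 3186 CPM in NPC against 1839 to 3413 CPM in IN, so neither their sum nor that of the neuron markers separated the groups. Mean sums in NPC and IN were 18.0 and 53.6 CPM for microglia, 94.9 and 42.0 CPM for endothelial and 181 and 127 CPM for oligodendrocyte markers. The microglia sums overlapped, at 23.8, 8.75 and 21.5 CPM in NPC against 98.2, 20.7 and 41.9 CPM in IN. Endothelial sums overlapped too, and their mean coding sums had the opposite order, at 7.14 RPKM in NPC against 27.4 RPKM in IN. The CPM sums of oligodendrocyte markers did not overlap, at 153 to 232 CPM in NPC against 94.2 to 149 CPM in IN. In coding sequence the oligodendrocyte sums overlapped, at 101, 17.5 and 5.14 RPKM in NPC against 40.6, 179 and 4.40 RPKM in IN. Of 13 erythroid marker genes, 5 had no read. The erythroid markers summed to 437, 935 and 33.3 CPM in NPC against 463, 503 and 26.7 CPM in IN, so replicate 3 was far below the others in both groups.

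The plant homeodomain subunits are the exchanged pair best covered here. The neuronal form dpf1.L (build 9.1, chromosome 8L, 55607182 to 55670616, plus strand) was at 194, 355 and 77.2 CPM in the NPC libraries against 83.6, 51.2 and 68.8 CPM in the IN libraries. NPC replicates 1 and 2 stood above all IN libraries, while NPC replicate 3 lay within the IN range. The log2 fold change was -1.62 (SE 0.65, unadjusted p = 0.0208 by edgeR), and the exact permutation test on log2(CPM + 1) gave p = 0.2, where 0.1 is the smallest that 3 against 3 allows. Without NPC replicate 2 it was -0.99, with an unadjusted p of 0.185 by edgeR. In coding sequence the gene was at 316, 104 and 48.5 RPKM in NPC against 23.9, 13.9 and 48.4 RPKM in IN. The lowest NPC and the highest IN library thus nearly met, at a log2 fold change of -2.48 (SE 0.91, unadjusted p = 0.0123 by edgeR).

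The other neuronal-form copies did not share one pattern. dpf1.S was at 50.3, 31.0 and 38.7 CPM in NPC against 43.8, 7.20 and 2.88 CPM in IN. Its log2 fold change was -1.15 (SE 1.18), with IN replicate 1 inside the NPC range, and it was -2.98 without that library. In coding sequence it was -0.08 (SE 1.96). Both copies of dpf1 summed gave -1.52 (SE 0.59, unadjusted p = 0.0170 by edgeR), the only one of 38 summed symbols with an unadjusted p under 0.05, beside 3.49% of all summed genes. dpf3.L, the second neuronal form, was at 103, 60.7 and 39.3 CPM in NPC against 64.6, 59.6 and 57.6 CPM in IN, so that the IN libraries lay inside the NPC spread (log2 fold change -0.16, SE 0.77). Only 13.1% of its NPC reads and 8.56% of its IN reads were coding, and IN replicate 2 had no coding read. dpf3.S was low, at 10.3, 6.37 and 0.38 CPM in NPC against 40.5, 8.12 and 1.13 CPM in IN, with a log2 fold change of 1.54 (SE 1.76).

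The progenitor-form counterparts did not separate the groups in CPM of the main table. dpf2.L was at 138, 1.75 and 21.8 CPM in NPC against 14.1, 35.1 and 113 CPM in IN, which gave group means of 53.7 ± 73.3 and 54.1 ± 52.1 CPM (SD, n = 3). The libraries of each group differed far more than the groups did, and the log2 fold change was 0.01 (SE 1.11). dpf2.S was at 41.3, 52.1 and 19.1 CPM in NPC against 8.69, 37.2 and 50.8 CPM in IN (log2 fold change -0.22, SE 1.03), with full overlap. phf10, the progenitor subunit that the name rule leaves out, was at 39.4 ± 14.7 and 17.4 ± 22.4 CPM for phf10.L and at 48.9 ± 44.4 and 53.3 ± 29.3 CPM for phf10.S in NPC and IN (SD, n = 3). In coding sequence phf10.L was apart, at 13.8, 23.8 and 22.9 RPKM in NPC against 8.45, 1.66 and 0.112 RPKM in IN. Its coding log2 fold change was -2.68 (SE 1.92, unadjusted p = 0.176 by edgeR). Of all genes tested there, 3.63% were apart in that direction, and phf10.S overlapped.

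The ratio of neuronal to progenitor forms followed from these values. Summed reads per kb of dpf1 and dpf3 over dpf2 were 4.04, 6.08 and 4.56 in the NPC libraries against 14.2, 1.99 and 1.36 in the IN libraries. IN replicate 1 had the highest ratio of all 6 and the other IN libraries the lowest, so the groups overlapped. With phf10 added to dpf2, the ratios were 2.32, 4.31 and 1.06 in NPC against 1.99, 1.46 and 0.893 in IN, where IN replicate 1 was within the NPC range. Without phf10, the mean log2 ratio was 2.27 ± 0.30 in NPC against 1.75 ± 1.81 in IN (SD, n = 3). In coding sequence the ratios were 3.44, 3.40 and 3.77 in NPC against 16.9, 0.735 and 0.424 in IN. The NPC libraries were close to each other on that scale, and dpf2 exceeded dpf1 and dpf3 only in IN replicates 2 and 3. IN replicate 1 held 82.5 reads per kb of dpf2 in the main table, the lowest of the 6 libraries.

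**Figure D2:**
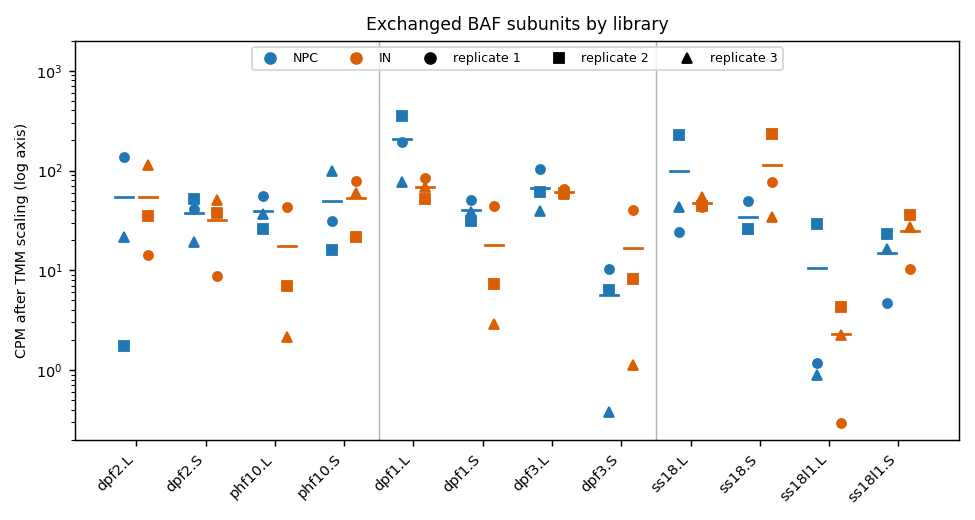
CPM after TMM scaling (log axis) of each exchanged BAF subunit gene in every library, with symbols for the replicate number and a line at each group mean (n = 3). The left panel has the progenitor forms, with phf10 from outside the name rule, the middle panel the neuronal dpf forms, and the right panel ss18 and its neuronal counterpart ss18l1; dpf1.L in NPC replicates 1 and 2 lies above all 3 of its IN points.

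In the ss18 pair, the progenitor form had the higher level per length in all 6 libraries. ss18.S (6S, 87302577 to 87321024, minus strand) was at 49.99, 25.9 and 25.8 CPM in NPC against 75.9, 230 and 34.0 CPM in IN. IN replicates 1 and 2 were above all NPC libraries and IN replicate 3 lay inside their range. The log2 fold change was 1.74 (SE 0.83, unadjusted p = 0.0476 by edgeR), and it was 0.71 without IN replicate 2. ss18.L was at 24.3, 229 and 42.8 CPM in NPC against 43.6, 44.4 and 54.2 CPM in IN, so NPC replicate 2 stood above the other 5 libraries (log2 fold change -1.06, SE 0.84). With both copies summed, ss18 was at 132 ± 106 CPM in NPC against 161 ± 99.9 CPM in IN (SD, n = 3; log2 fold change 0.30, SE 0.63).

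The neuronal form ss18l1 was low per length, at 8.62 coding RPKM for the S copy and 0.319 for the L copy as means of 6 libraries. ss18l1.S was at 4.66, 23.1 and 16.4 CPM in NPC against 10.3, 36.1 and 27.2 CPM in IN (log2 fold change 0.73, SE 1.31), with the groups overlapping. ss18l1.L was at 1.17, 29.4 and 0.886 CPM in NPC against 0.296, 4.26 and 2.27 CPM in IN (log2 fold change -2.20, SE 2.04). The span of ss18l1.L overlaps psma7.L, a proteasome subunit gene on the opposite strand with 3637 reads over the 6 libraries beside 320 for ss18l1.L, and strand use in counting is not given, so the reads of the pair cannot be told apart.

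The ratio of ss18l1 to ss18 was below 1 in every library. Per kb it was 0.0216, 0.129 and 0.0877 in NPC against 0.0233, 0.0340 and 0.116 in IN, with full overlap and a mean log2 difference of -0.47. In coding sequence it was 0.00571, 0.0960 and 0.00209 in NPC against 0.0387, 0.0382 and 0.0347 in IN, with a mean log2 difference of 1.83. The IN libraries were nearly equal there and lay between NPC replicate 2 and the other NPC libraries, which had no coding read of ss18l1.S. The coding ratios of NPC replicates 1 and 3 thus rested on 3 and 1 reads of ss18l1.L. The sign of the mean difference changed with the counted part, but the coding value rests on those few reads and gives no direction of the ss18l1 exchange.

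**Figure D3:**
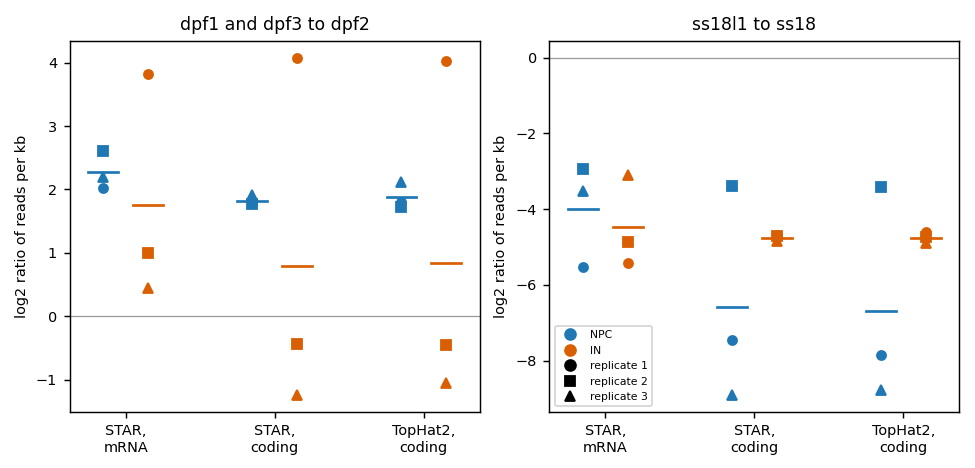
Log2 ratio of reads per kb for dpf1 and dpf3 over dpf2 (left) and for ss18l1 over ss18 (right), by library, in the whole-transcript (mRNA) and both coding-sequence tables, with lines at the group means (n = 3). IN replicate 1 has the highest dpf ratio in all 3 tables, and all ss18l1 ratios lie below 0.

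The central ATPase smarca4 had its higher values on the S copy in NPC. smarca4.S was at 171, 824 and 485 CPM in NPC against 165, 166 and 391 CPM in IN, with a log2 fold change of -1.04 (SE 0.58, unadjusted p = 0.0874 by edgeR). NPC replicates 2 and 3 were above all IN libraries, and NPC replicate 1 was level with the lower IN libraries; without NPC replicate 2 the value was -0.44. smarca4.L was even, at 185, 132 and 115 CPM in NPC against 125, 157 and 144 CPM in IN (log2 fold change -0.02, SE 0.57). The S copy took 48.1% to 86.2% of smarca4 reads in the main table, and more than the L copy in 5 of 6 libraries. Of the coding reads it took 58.3% to 86.2%.

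Among the 12 genes of core and shared subunits, 4 had fold changes above 0 and 8 below. smarcb1, which anchors the complex to the nucleosome and is lost in human rhabdoid tumours, had the lowest p on its L copy (1L, 153033411 to 153048520, minus strand). smarcb1.L was at 95.01, 240 and 244 CPM in NPC against 28.9, 27.8 and 160 CPM in IN (log2 fold change -1.42, SE 0.73, unadjusted p = 0.0649 by edgeR). Only IN replicate 3 reached into the NPC range. Without that library, the one that went against the difference, the log2 fold change was -2.76. A value without the contrary library is not read as support. In coding sequence the groups separated, with 145, 256 and 284 RPKM in NPC against 11.0, 7.69 and 124 RPKM in IN (log2 fold change -2.37, SE 0.91, unadjusted p = 0.0163 by edgeR). smarcb1.S went the other way in the main table, at 130, 30.6 and 66.2 CPM in NPC against 90.3, 99.9 and 86.5 CPM in IN (log2 fold change 0.28, SE 0.72). With both copies summed, smarcb1 overlapped between groups, with a log2 fold change of -0.70 (SE 0.51, unadjusted p = 0.183 by edgeR). NPC replicate 1 had the highest smarcb1.S level of the NPC libraries and the lowest smarcb1.L level.

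smarcd1.S, a subunit that links the complex to transcription factors, was the core member with no overlap, at 32.7, 70.9 and 44.8 CPM in NPC against 7.41, 25.3 and 15.9 CPM in IN (log2 fold change -1.61, SE 1.05, unadjusted p = 0.141 by edgeR). smarcd1.L overlapped fully, at 33.1 ± 28.0 and 27.3 ± 14.3 CPM (SD, n = 3). smarce1.S, the DNA-binding HMG-box subunit and the member with the highest coding RPKM (195 as the mean of 6 libraries), was at 97.7, 107 and 306 CPM in NPC against 112, 442 and 382 CPM in IN (log2 fold change 0.87, SE 0.61, unadjusted p = 0.170 by edgeR). The scaffold genes smarcc1 and smarcc2 were at 489 ± 204 and 297 ± 49.1 CPM in NPC against 423 ± 226 and 309 ± 44.9 CPM in IN with their copies summed (SD, n = 3). Their fold changes were small beside their errors, at -0.21 (SE 0.49) and 0.06 (SE 0.45).

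Subunits that define the kind of assembly overlapped between groups in the main table. Of 8 genes, 6 had fold changes below 0 and 2 above, from -0.68 (arid1b.S) to 0.90 (brd9.L), with unadjusted p from 0.251 to 0.996 in edgeR. arid1b, the DNA-binding subunit of canonical BAF, was at 485 ± 176 CPM in NPC against 325 ± 47.0 CPM in IN with its copies summed (SD, n = 3; log2 fold change -0.57, SE 0.45). arid2, pbrm1 and brd7 mark PBAF and brd9 the non-canonical form, and all of these genes overlapped in CPM. The accessory genes split 3 above and 3 below 0 among the 6 tested. bcl11b, a zinc-finger subunit also known as a transcription factor of neuronal differentiation, was at 271 ± 46.1 and 255 ± 101 CPM summed over its copies (SD, n = 3). bcl7b.L and bcl7b.S had too few reads to be tested.

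The NuRD motor chd4 was the most abundant CHD gene. chd4.L (7L, 7888721 to 7915533, minus strand) was at 273, 673 and 944 CPM in NPC against 469, 696 and 1142 CPM in IN, and at 187 coding RPKM as the mean of 6 libraries. Replicate 3 was highest and replicate 1 lowest within each group, and the same held for the share of members' reads that was coding, whose part in these levels was not tested. The log2 fold change of 0.29 (SE 0.51) was within that spread. chd4.S was at 116, 58.6 and 311 CPM in NPC against 66.6, 53.2 and 265 CPM in IN (log2 fold change -0.34, SE 0.72), again with replicate 3 highest in each group. The S copy took 7.09% to 29.8% of chd4 reads.

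chd3, the other NuRD motor, was lower in IN on its L copy. chd3.L was at 63.9, 62.5 and 91.0 CPM in NPC against 30.6, 33.4 and 31.2 CPM in IN, with no overlap (log2 fold change -1.19, SE 0.83, unadjusted p = 0.166 by edgeR, exact permutation p = 0.1). A gene on the opposite strand of chd3.L had 178 reads beside its 2764. In coding sequence chd3.L overlapped, at 16.1, 2.87 and 19.6 RPKM in NPC against 5.52, 7.01 and 6.35 RPKM in IN. chd3.S was at 60.5, 55.2 and 63.9 CPM in NPC against 80.2, 39.5 and 52.4 CPM in IN (log2 fold change -0.06, SE 0.79). In coding sequence its groups did not overlap in the other direction, at 10.2, 11.9 and 8.62 RPKM in NPC against 22.8, 12.3 and 14.1 RPKM in IN.

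The CHD6 to CHD9 class held a further pair of the members with no overlap. chd6.L was at 94.8, 100.0 and 94.6 CPM in NPC against 69.4, 46.8 and 53.2 CPM in IN (log2 fold change -0.77, SE 0.71, unadjusted p = 0.287 by edgeR). The groups were also apart in coding sequence, at 16.1, 14.2 and 14.5 RPKM in NPC against 9.09, 7.82 and 8.34 RPKM in IN. chd9.L was at 313, 243 and 257 CPM in NPC against 179, 195 and 196 CPM in IN (log2 fold change -0.51, SE 0.51, unadjusted p = 0.324 by edgeR), but its coding levels overlapped, at 29.0, 29.3 and 30.4 RPKM in NPC against 25.4, 15.1 and 30.3 RPKM in IN. chd6.S (125 ± 18.3 and 110 ± 63.7 CPM), chd8.L (84.7 ± 26.1 and 71.6 ± 30.5 CPM) and chd8.S (108 ± 45.02 and 111 ± 80.8 CPM) overlapped (SD, n = 3). As a class the 5 genes, none of them named chd7, summed to 669, 664 and 725 CPM in NPC against 655, 428 and 534 CPM in IN. In coding sequence the sums overlapped, at 79.8, 77.4 and 97.8 RPKM in NPC against 109, 47.9 and 87.3 RPKM in IN. The chd7-like genes, which are outside these sums, had log2 fold changes of 0.56 (L copy) and 0.34 (S copy).

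Of the CHD1 and CHD2 genes, which act in transcribed chromatin, chd1.L rested on a single library. chd1.L was at 27.2, 41.7 and 43.3 CPM in NPC against 31.3, 12.9 and 305 CPM in IN. IN replicate 3 alone was high, and without it the log2 fold change went from 1.64 (SE 0.94) to -0.75. chd1.S was at 79.3 ± 51.0 and 50.3 ± 31.1 CPM and chd2.L at 218 ± 62.8 and 155 ± 42.9 CPM in NPC and IN (SD, n = 3), with overlap and log2 fold changes of -0.66 (SE 0.83) and -0.49 (SE 0.54).

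The ISWI motor smarca5, which spaces nucleosomes, had wide spreads in NPC. smarca5.L was at 21.5, 74.4 and 219 CPM in NPC against 39.6, 71.0 and 102 CPM in IN (log2 fold change -0.56, SE 0.80), and smarca5.S at 28.3, 58.5 and 133 CPM in NPC against 42.7, 92.4 and 122 CPM in IN (log2 fold change 0.23, SE 0.77). Both copies were highest in replicate 3 and lowest in replicate 1 of each group. The related smarca1.L was at 46.2, 4.37 and 23.3 CPM in NPC against 5.63, 3.25 and 7.11 CPM in IN (log2 fold change -2.21, SE 1.52, unadjusted p = 0.161 by edgeR), but its mean coding level of 0.83 RPKM was among the lowest of all members.

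INO80 complex genes were low in CPM and variable. Per coding length they ran from 3.62 RPKM (ino80.S) to 36.5 RPKM (ino80e.S) as means of 6 libraries. The motor gene ino80.L was at 45.4, 21.0 and 2.02 CPM in NPC against 34.1, 53.5 and 29.0 CPM in IN (log2 fold change 0.77, SE 1.15), and ino80.S at 24.4, 25.6 and 5.69 CPM in NPC against 8.79, 4.46 and 7.62 CPM in IN (log2 fold change -1.41, SE 1.53). Both copies were lowest in NPC replicate 3 within that group. ino80e.S was apart between groups, at 7.73, 19.9 and 43.3 CPM in NPC against 0.198, 7.20 and 7.31 CPM in IN (log2 fold change -2.27, SE 1.62, unadjusted p = 0.178 by edgeR), by a margin of less than 1 CPM. Its coding levels were also apart, at 31.2, 50.6 and 98.5 RPKM in NPC against 0.786, 19.0 and 18.8 RPKM in IN. ino80e.L overlapped, at 0.318, 38.1 and 13.3 CPM in NPC against 0.198, 0.203 and 9.47 CPM in IN. The sum of both ino80e copies overlapped too.

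Among the INO80 subunits, ino80c.S and ino80b.S had few reads. ino80c.S was at 2.44, 0 and 0 CPM in NPC against 11.8, 45.1 and 0.721 CPM in IN (log2 fold change 4.53, SE 2.24, unadjusted p = 0.0561 by edgeR), where a count of 0 allows up to 3 reads, or 0.375 and 0.380 CPM in those NPC libraries. IN replicate 2 held most of its reads, and without it the value was 2.94. ino80b.S was at 7.84, 0 and 11.1 CPM in NPC against 5.73, 24.1 and 57.1 CPM in IN (log2 fold change 2.19, SE 1.64), with overlap. The other SNF2 ATPase genes smarcad1 and smarcal1, which act in DNA repair and replication, had log2 fold changes from -0.81 to 0.26 and overlapped.

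**Figure D4:**
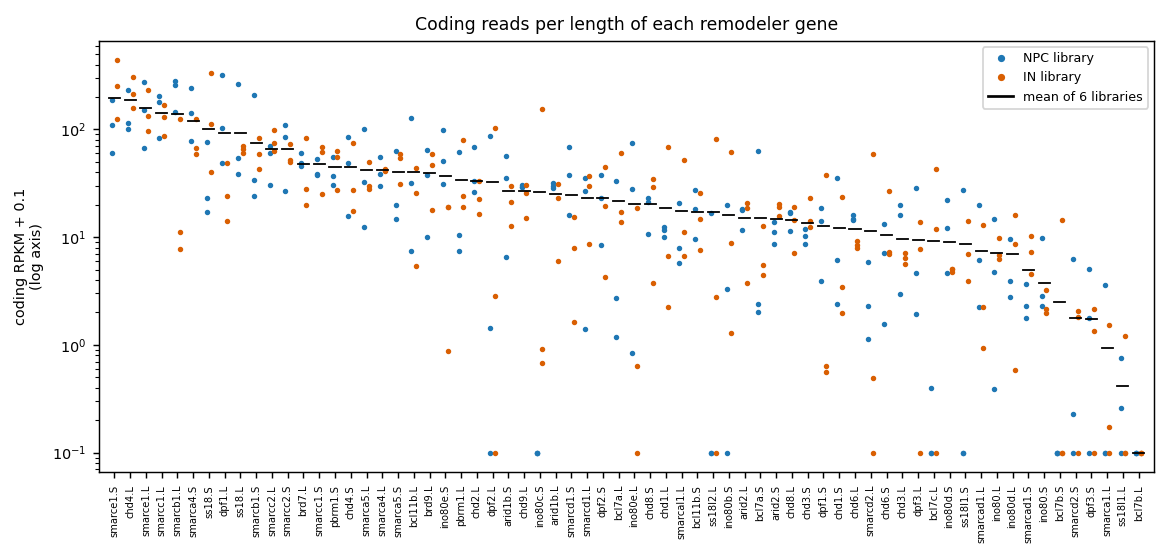
Coding RPKM + 0.1 (log axis) of the 66 remodeler genes in each library, ordered by their mean over 6 libraries, with NPC and IN points side by side. Means reach 195 for smarce1.S and 187 for chd4.L, 12 genes are at 50 or above and 8 below 5, and the points of most genes overlap between groups.

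Per length, the core of BAF and the NuRD motor led. The genes with the highest mean coding RPKM over 6 libraries were smarce1.S (195), chd4.L (187), smarce1.L (159), smarcc1.L (142), smarcb1.L (138), smarca4.S (119) and ss18.S (100.3). Neighbours in that order overlapped across libraries, since smarce1.S alone ran from 59.7 to 437 RPKM. Of 66 members, 50 had a mean of at least 10 coding RPKM and bcl7b.L had no coding read. The neuronal exchanged subunits summed to 327, 156 and 90.9 coding RPKM in NPC against 77.2, 31.5 and 66.4 in IN, with every NPC library above every IN library. That separation rested on dpf1.L, since without it the sums were 10.7, 52.2 and 42.5 coding RPKM in NPC against 53.3, 17.6 and 18.0 in IN, with IN replicate 1 the highest of all. In CPM of the main table the sums with dpf1.L were 363, 506 and 173 in NPC against 243, 166 and 160 in IN and overlapped. The progenitor exchanged subunits dpf2 and ss18 summed to 209, 319 and 101 coding RPKM in NPC against 182, 416 and 258 in IN, with overlap.

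In all, 5 members had no overlap between groups (7.81% of 64), beside 8.76% of all tested genes. All 5 were higher in NPC (smarcd1.S, chd3.L, chd6.L, chd9.L and ino80e.S), beside 4.06% of all genes in that direction and 4.7% in the other. In coding counts, 5 of 58 members were higher in NPC without overlap (8.62%), beside 3.63% of genes, and 3 were higher in IN (5.17%), beside 5.96%. Those higher in NPC were dpf1.L, smarcb1.L, smarcd1.S, chd6.L and ino80e.S, and those higher in IN were chd3.S, arid2.S and smarcad1.S.

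**Figure D5:**
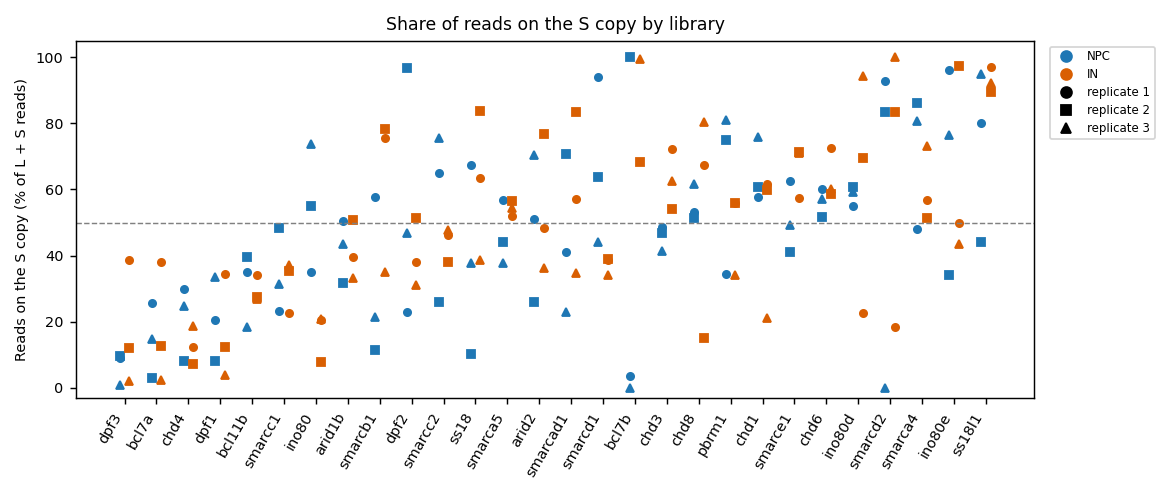
Share of reads on the S copy (y axis, % of L + S reads) for each of the 28 symbols with both copies annotated, in every library with reads of that symbol, with marker shapes for the replicate number. A dashed line marks 50%, and the points of 21 symbols lie on both sides of it.

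The balance of L and S copies varied between libraries. The more abundant copy switched between libraries in 21 of 28 symbols, and the S share of reads ran from 10.2% to 83.8% for ss18, from 11.3% to 78.2% for smarcb1 and from 23.1% to 96.8% for dpf2. No minimum of reads was set for the count of switches, and bcl7b had only 2 reads in NPC replicate 2 and 0 in IN replicate 1. In the main table, with its intron reads, 7 symbols had more reads on the same copy in all 6 libraries, with dpf1 (S share 4.02% to 34.4%), dpf3 (0.955% to 38.5%), chd4, bcl7a, bcl11b and smarcc1 on the L side and chd6 (51.7% to 72.5%) on the S side. In coding reads this held for 2 of the 7, chd4 (S share 7.56% to 29.5%) and smarcc1 (15.4% to 38.6%), while the S share ran from 1.10% to 61.0% for dpf1 and from 9.40% to 74.5% for chd6. Outside the 7, smarca4 had more coding reads on its S copy in all 6 libraries (S share 58.3% to 86.2%). Fold changes of the 2 copies had opposite signs in 14 of 27 symbols. The counts of switches and of opposite signs were not set beside those of all other L and S pairs. They therefore cannot be read as particular to remodeler genes. How reads that match both copies were counted is not given, so the split between copies is uncertain. With copies summed, 2 of 38 symbols had no overlap and were higher in NPC, beside 3.93% of all summed genes in that direction. They were chd3 (132 ± 19.8 and 89.1 ± 19.6 CPM in NPC and IN, SD, n = 3) and chd9. Only the L copy of chd9 is annotated, so its value is that of chd9.L given above.

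Genes annotated as smarca2-like, chd7-like and chd5-like.2 fall outside the name rule and were looked at because the plain symbols were absent. smarca2-like.L was at 65.9, 84.0 and 120 CPM in NPC against 347, 101 and 110 CPM in IN (log2 fold change 1.05, SE 0.64), where IN replicate 1 alone stood apart. chd7-like.L was at 154, 162 and 202 CPM in NPC against 294, 280 and 192 CPM in IN (log2 fold change 0.56, SE 0.52). chd5-like.2.L was at 31.7, 43.6 and 58.1 CPM in NPC against 89.3, 95.3 and 56.0 CPM in IN (log2 fold change 0.85, SE 0.78). In both of these, IN replicates 1 and 2 lay above all NPC libraries and IN replicate 3 within their range. In coding sequence the IN libraries of these 3 L copies lay above the NPC libraries, beside 5.96% of all genes tested there in that direction. smarca2-like.L was at 15.5, 19.3 and 15.4 RPKM in NPC against 51.2, 23.2 and 34.1 RPKM in IN, with coding log2 fold changes of 1.00 (SE 0.76) for it, 0.96 (SE 0.57) for chd7-like.L and 0.99 (SE 0.998) for chd5-like.2.L. The S copies overlapped in coding sequence. Their coding log2 fold changes were -0.65 (SE 1.09) for smarca2-like.S, 0.02 (SE 0.58) for chd7-like.S and -0.01 (SE 0.80) for chd5-like.2.S. Of the 6 like-named genes, 5 had fold changes above 0 in the main table and 0 passed the test.

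Other genes of the same complexes, 87 copies of 51 symbols, gave no call either. Of the 81 tested, 39 had fold changes above 0 and 42 below, with a median of -0.09, and 0 passed the test. The histone chaperone rbbp4.L of NuRD had the one unadjusted p under 0.05 (log2 fold change -3.05, SE 1.39), at 0.318, 31.0 and 145 CPM in NPC against 7.01, 8.52 and 5.66 CPM in IN, where NPC replicate 1 was the lowest of all. In NuRD, gatad2a.L was apart and higher in NPC, at 73.5 ± 34.6 against 20.9 ± 9.99 CPM, and the deacetylase hdac2.S apart and higher in IN, at 16.5 ± 7.11 against 54.7 ± 24.1 CPM (SD, n = 3). gatad2b.S overlapped, at 9.21 ± 8.16 and 45.6 ± 34.1 CPM (SD, n = 3).

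Of the partners of ISWI and INO80, 4 were also apart. The nucleosome-spacing subunit chrac1.S was higher in NPC, at 14.5 ± 9.44 against 0.685 ± 1.10 CPM (SD, n = 3). The INO80 partner yy1.S was at 0.424, 5.87 and 1.14 CPM in NPC against 18.4, 21.3 and 26.3 CPM in IN (log2 fold change 3.14, SE 1.70, unadjusted p = 0.0787 by edgeR). Its coding counts exceeded its main counts in IN, at 215% of them, and the coding log2 fold change was 4.33 (SE 1.60, unadjusted p = 0.0131 by edgeR), with the groups apart. Of the acetyltransferase subunits, dmap1.L was at 36.9, 4.87 and 21.8 CPM in NPC against 54.2, 102 and 58.6 CPM in IN, and ing3.S at 33.1 ± 7.09 against 53.5 ± 12.9 CPM (SD, n = 3). With these, 6 partners had no overlap (7.41% of 81), 4 of them higher in IN, beside the 8.76% of all tested genes given above, and 2 of the 6, yy1.S and hdac2.S, were also apart in coding sequence.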

How the data were processed

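The authors deposited raw counts as whole numbers, from STAR over mRNA, STAR over coding sequence and TopHat2 over coding sequence, per the sheet names. The submitters' processing notes also list FastQC, Trimmomatic, HTSeq and DESeq2. Versions, strand setting and the handling of multiply matching reads are details not given in the sources used here. Columns D and L were read as dark (NPC) and light (IN), with the numbers of the titles. Positions follow the deposited annotation (genome build 9.1, per the file headers), 1-based.

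Genes of the 6 libraries passing filterByExpr in the STAR mRNA counts were TMM-scaled and compared by edgeR 4.0.16 (R 4.3.3, robust quasi-likelihood test, 2-sided, Benjamini-Hochberg over all tested genes, threshold 0.05). Alternatives used DESeq2 1.42.0, limma 3.58.1 (voom), other scalings and filters, both coding tables, summed copies, a replicate block and each library left out. Standard errors of edgeR fits were derived as the absolute log2 fold change over the square root of the F statistic. The code was tested on simulated data. Ratios per kb in the mRNA table use annotated exon length, although that table holds intron reads.

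No label states that libraries came from separate animals, so the p-values describe the spread of these libraries, which may be technical, and limits for counts of 0 cover counting error only. Members and lists were chosen with earlier results of these data known. Named were all copies of the exchanged subunits and ATPases, members with no overlap and a mean of at least 5 CPM, and the 5 of lowest p in each direction (partners: no overlap, and the 3 of lowest p). Other members given as examples, the like-named genes, coding RPKM, coding copy shares, the ratio with phf10, the sum without dpf1.L and the check on introns were chosen after the values were seen.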

Additional observations from a re-analysis of the deposited data

How the results depend on the processing

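No alternative called a member: over 16 alternatives for 35 named members the smallest adjusted p was 0.473 (DESeq2). Over all genes, the count of calls was 0 in the main fit, 16 with no filter on reads, 88 in DESeq2 and 0 to 2 with a library left out. No label states that replicate numbers pair the libraries. Deviations of same-numbered libraries correlated weakly, at 0.115, 0.0467 and 0.0813 (19158 genes), not all above the 0.1 required here for pairing. Every library correlated best with its own number, and the coding share of reads followed the number too (45.1%, 55.1% and 61.0% in NPC, 45.9%, 54.0% and 60.9% in IN), which is a hint from the data, not the design. The replicate block called 0 genes, with 645 at an unadjusted p under 0.05 beside 658. Scaling moved the median fold of all genes from -0.03 to 0.05 (upper quartile) and limma-voom to 0.09.

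Of 552 log2 fold changes of named members under an alternative, 47 had the opposite sign, 26 of them with a library left out, and 16 of 35 members never reversed. The cause was not tested. With upper-quartile scaling, smarca4.L was 0.045, dpf2.L -0.0077 and chd3.S 0.014. With the replicate block, smarca4.L was 0.0052 and chd8.S -0.331, and with limma-voom chd8.S was -0.380. In STAR and TopHat2 coding counts, ss18l1.S was -0.389 and -0.365, chd6.S 0.881 and 0.879, chd3.S 0.574 and 0.618, and the ss18l1 to ss18 log2 difference 1.83 and 1.92. With copies summed, dpf3 was 0.082, ss18l1 0.107, dpf2 -0.088, ss18 0.298, chd1 0.520, chd8 -0.065, ino80 0.151, smarca5 -0.176 and chd4 0.189.

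Leaving out a library moved the fold change of 30 of 35 named members by over 1.5 times or reversed it. For those that reversed, log2 fold changes ran from -0.75 to 2.16 (chd1.L), -0.38 to 0.15 (chd3.S), -0.11 to 0.70 (chd4.L), -1.43 to 0.56 (chd4.S), -0.78 to 0.074 (chd6.S), -0.58 to 0.047 (chd8.L), -0.35 to 0.54 (chd8.S), -1.12 to 2.19 (dpf2.L), -0.70 to 0.23 (dpf2.S), -0.43 to 0.26 (dpf3.L), -0.30 to 2.27 (dpf3.S), -0.15 to 0.18 (smarca4.L), -1.06 to 0.57 (smarca5.L), -0.18 to 0.98 (smarca5.S), -1.54 to 0.51 (ss18.L) and -3.03 to 1.14 (ss18l1.L). The dpf log2 difference of -0.52 ran from -1.55 to 0.14, and was -1.02 and -1.04 in the coding tables. The alternatives for the actl6 ratio were not run, since no gene carried those names.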
